A study of Mus musculus with 12 samples.

Results

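The 10 genes described here, Cdhr1, Tbx21, Eomes, Doc2g, Shisa3, Th, Sall3, Trh, Omp and Ush1g, are olfactory bulb markers measured in RNA-seq libraries of mouse medial prefrontal cortex. They were chosen by symbol because their counts were high in the first and second libraries of unstressed wild-type mice, so their height there is the choice itself and is described without a test. All 10 were found among the 24411 gene symbols of the deposited table. By role, 5 were taken as markers of mitral and tufted cells, 3 as markers of periglomerular cells and 1 as a marker of sensory axons, and Ush1g was left without a class.

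The study compared female mice of 8 to 12 weeks in 4 groups of 3 libraries each. Wild-type (WT) mice were C57BL/6J animals bought from a breeder, either without stress or after stress, given as a forced swim or tail suspension session once a day for 5 days. Cav3.1 knockout (KO) mice, on a C57BL/6J background and taken from a bioresource centre, lack the T-type calcium channel encoded by Cacna1g and were kept without stress or given the same stress. The KO is not described as limited to a cell type, and genotype and source colony cannot be told apart in this design. The labels do not say whether each library is 1 animal, so the tests measure only the spread between libraries.

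The olfactory bulb lies in front of the frontal cortex. Sensory neurons of the nose, which make olfactory marker protein (Omp), send their axons into its glomeruli and contact mitral and tufted cells, the glutamatergic output neurons of the bulb. Periglomerular interneurons surround each glomerulus, and part of them make dopamine with tyrosine hydroxylase (Th). Granule cells, which arise from neuroblasts that migrate in through adult life, form the largest interneuron population. Mitral and tufted cells are known for the T-box factors Tbx21 and Eomes and for the cadherin-related protein Cdhr1.

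The sequences before the start sites of 3 members are shown because these genes carry the comparisons that follow: Cdhr1 is the reference for the other markers, Tbx21 is the marker whose ratio to it separated the genotypes, and Th marks the second cell class. Each run is the 250 bases upstream of the RefSeq start (assembly GRCm38.p6), read on the gene's own strand. For Th that start lies inside the gene span given below, which comes from another annotation, GENCODE.
Cdhr1 (chr14:37098348-37098597, minus strand): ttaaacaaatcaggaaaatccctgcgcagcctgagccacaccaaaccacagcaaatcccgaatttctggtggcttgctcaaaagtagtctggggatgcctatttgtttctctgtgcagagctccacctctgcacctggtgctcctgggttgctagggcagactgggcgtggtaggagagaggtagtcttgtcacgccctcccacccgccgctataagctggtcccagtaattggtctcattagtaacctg
Tbx21 (chr11:97115332-97115581, minus strand): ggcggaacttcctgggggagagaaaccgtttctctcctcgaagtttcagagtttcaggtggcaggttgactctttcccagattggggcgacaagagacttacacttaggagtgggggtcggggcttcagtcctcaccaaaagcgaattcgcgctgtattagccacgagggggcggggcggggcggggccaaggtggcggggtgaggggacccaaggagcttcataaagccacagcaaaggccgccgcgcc
Th (chr7:142899996-142900245, minus strand): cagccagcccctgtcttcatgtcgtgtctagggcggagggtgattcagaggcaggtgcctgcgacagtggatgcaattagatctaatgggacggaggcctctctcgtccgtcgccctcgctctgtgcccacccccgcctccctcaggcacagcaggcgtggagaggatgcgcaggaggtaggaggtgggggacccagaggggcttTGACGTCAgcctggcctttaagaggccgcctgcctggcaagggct
Capitals in the Th sequence mark a cAMP response element, TGACGTCA, which is its own reverse complement and lies 45 to 38 bases before the start. It was found in 508 of 32851 upstream windows of this length, or 1.55%. A T-box motif (AGGTGTGA, in 1.12% of windows), a TATA box (TATAAA, 12.4%) and a homeodomain core (TAATTA, 4.84%) were searched for on both strands as well. Among the 7 members with an entry in the promoter table, the element in Th was the only match, which says only that those letters are not in the other windows. No sequence was matched for Sall3, Omp or Ush1g.

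Each library held between 15469590 and 31082240 estimated counts, so that 3 counts were worth 0.092 to 0.192 CPM. Levels are given in CPM, the counts scaled to a common library size, with TMM scaling over the 12 libraries. Cacna1g stood at 109 to 144 CPM in the 6 WT libraries and at 54.6 to 66 CPM in the 6 KO libraries, the order the labels give. Cortical excitatory neuron genes were read beside the tissue label, without testing it. Slc17a7, the vesicular glutamate transporter of cortical neurons, lay between 1740 and 2070 CPM in 10 libraries. The libraries that chose the markers fell below that range, with 1210 CPM for the first and 1380 CPM for the second. The summed level of the cortical excitatory list was likewise lowest there, 4390 and 5010 CPM against 5350 to 7100 CPM. The share of cortex in each library was not tested. Unstressed WT libraries 1 and 2 stood apart from the other 10. Of 15199 genes, 2820 (18.6%) were higher in both of them than in any other library and 2687 (17.7%) were lower in both. Stressed KO library 1 also stood apart, with a summed level of 962 CPM for 15 striatal projection neuron genes against 265 to 347 CPM in the other 11.

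Among the mitral and tufted markers, Cdhr1 (chromosome 14, 37077857 to 37098347, minus strand, mm10) was the most abundant member. Without stress its levels were 423, 427 and 48.9 CPM in WT libraries 1, 2 and 3, and stressed WT libraries had 52.4, 17 and 7.61 CPM. KO libraries had 59.5, 23.9 and 16 CPM without stress, and 8.53, 19.9 and 35.3 CPM after it. The first 2 unstressed WT libraries were above all others, and the other 10 still spanned a 7.82-fold range in which the groups overlapped.

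Doc2g (chromosome 19, 4003313 to 4007005, plus strand), a double C2 domain protein, was highest in the same libraries. It stood at 222, 181 and 23.7 CPM without stress in WT and at 26.7, 8.52 and 3.82 CPM after stress. In KO it stood at 27.9, 11 and 5.38 CPM without stress and at 2.82, 10.3 and 15.6 CPM with stress. Each of the 3 groups outside unstressed WT held both a high and a low library, and they overlapped.

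Tbx21 (chromosome 11, 97098071 to 97115331, minus strand) encodes T-bet, a transcription factor better known from T cells and also made by bulb output neurons. In WT it was at 29.4, 24.7 and 2.28 CPM without stress, and at 4.34, 1.03 and 0.375 CPM after stress. In KO it was at 1.75, 0.593 and 0.548 CPM without stress, and at 0.104, 0.771 and 1.15 CPM after stress. The lowest of these rests on 3 counts. Of the T cell genes listed, Cd3e was at 0 to 0.064 CPM and Lck at 0.991 to 1.74 CPM in all 12 libraries. Cd4 was at 5.05 CPM in stressed KO library 1 and at 0.206 to 1.23 CPM elsewhere. A T cell source of Tbx21 was not tested.

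Eomes (chromosome 9, 118478212 to 118486132, plus strand), the other T-box factor of these cells, was at 90.8 and 97.2 CPM in the first 2 unstressed WT libraries and between 0.244 and 10.9 CPM in the other 10. Shisa3 (chromosome 5, 67607882 to 67623552, plus strand), an inhibitor of Wnt and fibroblast growth factor signalling, was at 73 and 54.6 CPM and between 0.104 and 8.27 CPM. In both genes stressed KO library 1 was lowest, with 7 counts of Eomes and 3 of Shisa3, while its Cdhr1 count was 245. Shisa3 overlaps Atp8a1 on the opposite strand, and Atp8a1 was not high in the same libraries (178 and 235 CPM against 227 to 310).

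Among the periglomerular markers, Th (chromosome 7, 142892752 to 142931128, minus strand) was at 94.2, 103 and 13.6 CPM in WT without stress, where stress libraries had 13.1, 6.76 and 4.27 CPM. In KO it was at 7.97, 4.15 and 3.29 CPM without stress, where stress libraries had 2.47, 4.1 and 9.86 CPM. All groups but unstressed WT overlapped. Catecholamine fibres that reach the cortex also contain this enzyme, and a fibre source of Th was not tested. Dbh, the enzyme that makes noradrenaline, was low at 0.174 to 0.723 CPM. Slc6a3, the dopamine transporter, was at 3.54 and 6.56 CPM in the first 2 unstressed WT libraries against 0.313 to 1.75 CPM elsewhere.

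Sall3, a zinc finger factor needed for dopaminergic periglomerular cells, had the smallest excess of the 10 by the mean of the choosing libraries over the median of the others, with 38.7 and 42 CPM against 5.78 to 13 CPM. Its range over the other 10 libraries, 2.25-fold, was also the narrowest. Trh (chromosome 6, 92242061 to 92244650, minus strand), the precursor of thyrotropin-releasing hormone, stood at 37.1 and 49.4 CPM against 1.98 to 9.16 CPM. Its highest value of those 10 was in stressed KO library 3, not in the libraries where Cdhr1 was highest.

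Omp (chromosome 7, 98143359 to 98145502, minus strand), the sensory neuron marker, was the one member that differed strongly between the 2 libraries that chose the genes, with 18.6 CPM in the first and 89.6 CPM in the second, a ratio of 4.82. The other 9 members had ratios of 0.749 to 1.33 between the same libraries. In WT it was otherwise at 5.93 CPM without stress (library 3) and at 0.764, 0.257 and 0.58 CPM after stress. In KO it was at 1.68, 0.274 and 0.0996 CPM without stress, against 0.279, 0.53 and 8.77 CPM after stress. Only unstressed WT library 3 and stressed KO library 3 exceeded 2 CPM among these 10. Omp lies within Capn5 on the same strand, and Capn5 was at 39.3 and 53.3 CPM in the first 2 libraries against 54.8 to 76 CPM, so it did not follow Omp.

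Ush1g (chromosome 11, 115315192 to 115322041, minus strand), a scaffold protein best known from hair cells of the inner ear, was at 21.1 and 20 CPM against 0.747 to 2.82 CPM. Otop2, which overlaps it on the opposite strand, followed it, with 16.7 and 14.1 CPM against 0.975 to 2.9 CPM. How the counting treated strand is unknown, so reads of the pair cannot be told apart.

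**Figure D1:**
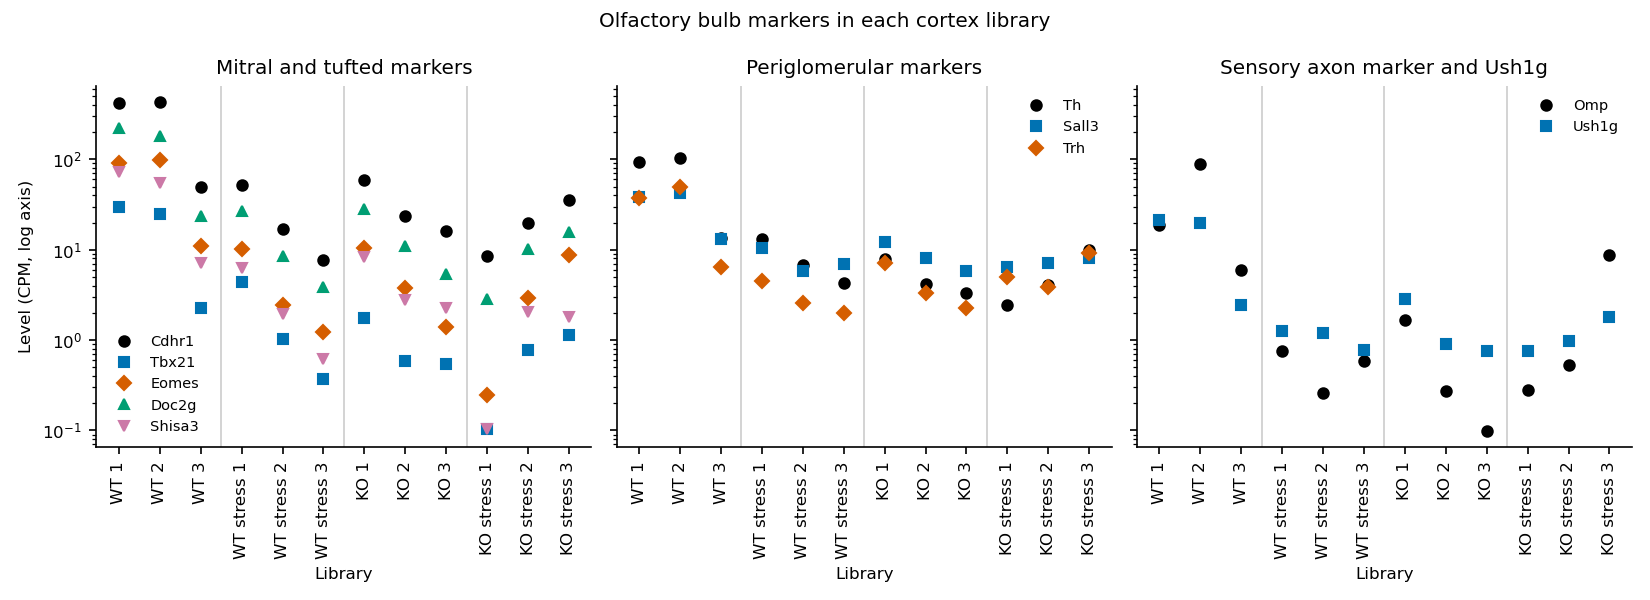
Level of each marker in CPM on a log axis (vertical) in each of the 12 libraries (horizontal), with mitral and tufted markers on the left, periglomerular markers in the middle and Omp with Ush1g on the right. Each point is 1 library and grey lines part the groups; unstressed WT libraries 1 and 2 are highest for all 10 genes, and Omp alone differs 4.82-fold between them.

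Per kilobase of exon, the order in the first 2 unstressed WT libraries ran from Cdhr1 (97.6 and 98.5 CPM per kilobase) and Doc2g (73.1 and 59.7) through Th (39.8 and 43.7), Trh (26.8 and 35.7), Eomes (21.9 and 23.4), Shisa3 (15.4 and 11.5) and Tbx21 (11.8 and 9.93) to Ush1g (6.37 and 6.06) and Sall3 (5.18 and 5.61). Omp moved within that order, at 8.68 in the first and 41.8 in the second. Shisa3 and Tbx21 overlapped over the 2 libraries, and the gaps from Trh to Th and to Eomes were smaller than the spread of Trh itself, while Cdhr1 lay above Doc2g in both. In the other 10 libraries the median was 5.06 CPM per kilobase for Cdhr1, 3.51 for Doc2g and 1.01 for Sall3, which ranked above Eomes (0.81) there.

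The mean of the 2 choosing libraries, set over the median of the other 10, was 19.4-fold for Cdhr1, 18.9-fold for Doc2g, 30.1-fold for Tbx21, 27.9-fold for Eomes and 29.9-fold for Shisa3. It was 17.9-fold for Th, 10.3-fold for Trh, 5.37-fold for Sall3, 19-fold for Ush1g and 97.5-fold for Omp. These values describe the choice. The lower of the 2 libraries exceeded the highest of the other 10 by 2.12-fold for Omp and 8.31-fold for Eomes, the extremes of the set. As these are bulk samples, fewer cells of a type and less RNA per cell cannot be told apart in any of these levels.

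Whether the markers moved together was asked in the 10 libraries that did not choose them, against Cdhr1, on the log2 CPM scale. Doc2g followed Cdhr1 most closely, with Pearson's r = 0.98 and Spearman's rho = 0.99 (permutation p = 1e-05, the smallest that the resamples can give, adjusted p = 9e-05 over the 9 relations computed). The other mitral and tufted markers had r = 0.93 for Eomes (rho 0.95, permutation adjusted p = 0.00031), 0.89 for Tbx21 (rho 0.9, 0.00092) and 0.89 for Shisa3 (rho 0.82, 0.00092). Th, Sall3 and Ush1g each had r = 0.83, with rho of 0.73, 0.84 and 0.87 and a permutation adjusted p of 0.0057 for each. Markers of 2 cell classes of the bulb varied with Cdhr1 over these 10 cortex libraries, in which unstressed WT has a single library. How many of all genes follow Cdhr1 as closely was not computed, so the relation is not shown to be particular to bulb markers.

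Trh and Omp followed Cdhr1 less closely. For Trh r was 0.67 (rho 0.7, permutation p = 0.037, adjusted p = 0.042). Without the 2 libraries farthest from the median of Cdhr1, unstressed KO library 1 and stressed WT library 3, it was 0.45 (permutation adjusted p = 0.26). Those libraries hold the highest and lowest Cdhr1 levels of the 10. Leaving them out narrows the range of Cdhr1, which by itself can lower r. The r of Trh was 0.84 with each group's mean removed, and 0.85 (permutation adjusted p = 0.0089) without stressed KO library 1. Of the 10 single leave-outs, 8 lost the call. For Omp r was 0.61 (rho 0.61, permutation p = 0.059, adjusted p = 0.059), and with each group's mean removed it was 0.69. Removing group means fixes the single unstressed WT library at 0 and ties the other libraries within each group. Free shuffles do not allow for this, so no p is given for the centred values. Without the same 2 libraries r was 0.98 for Doc2g, 0.97 for Eomes, 0.93 for Tbx21, 0.92 for Th, 0.87 for Shisa3, 0.84 for Sall3 and 0.77 for Ush1g. All points of a relation share their library and its scaling, and depth was not tested as a part of it.

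**Figure D2:**
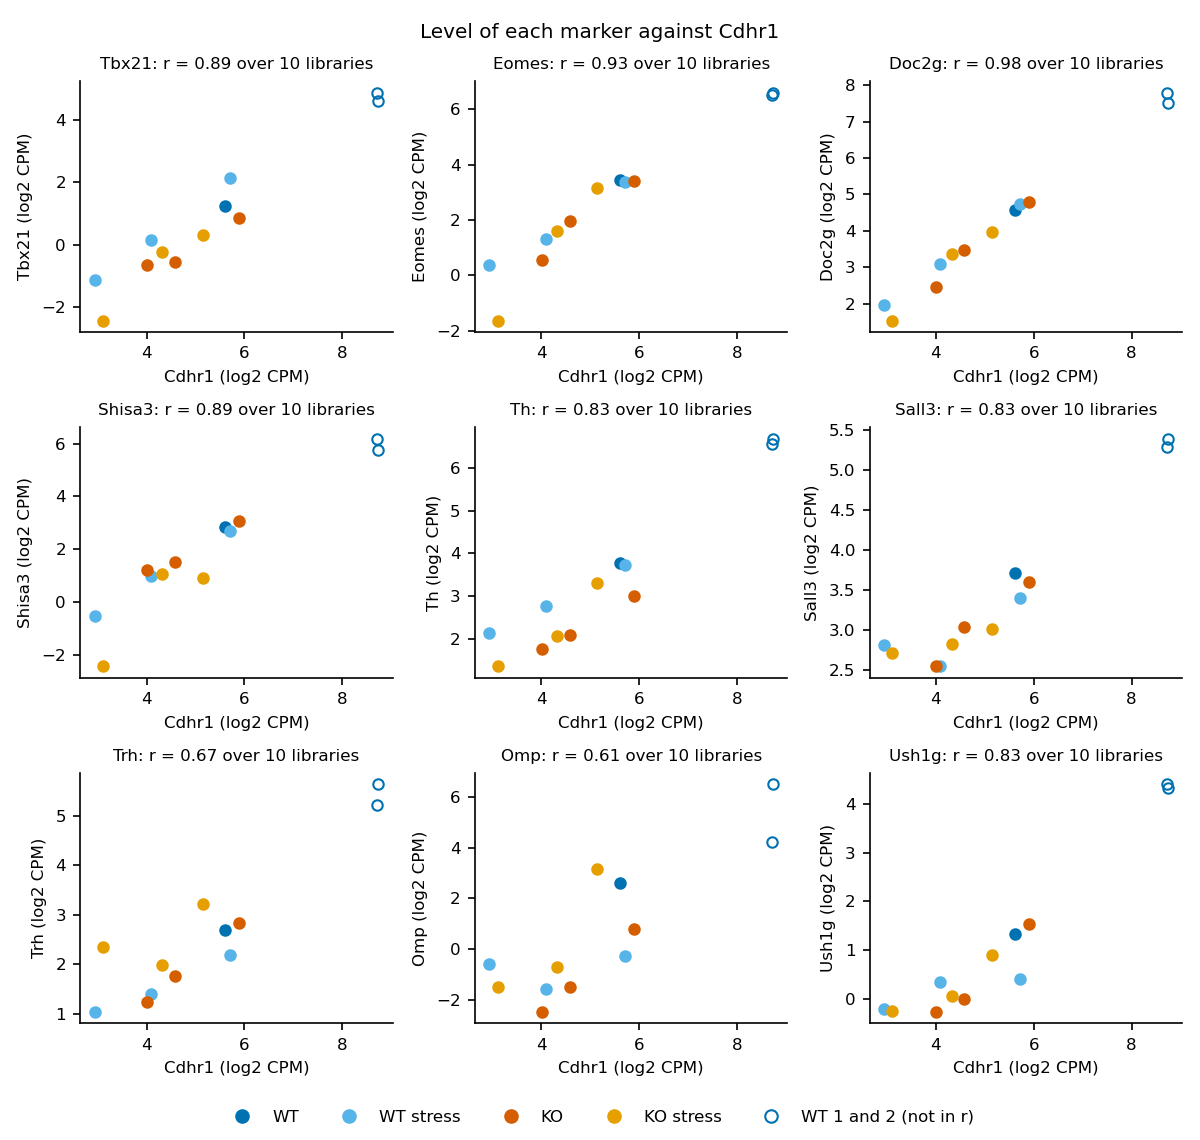
Level of each of 9 markers (vertical, log2 CPM) against Cdhr1 (horizontal, log2 CPM), 1 point per library, coloured by group. Filled points are the 10 libraries in Pearson's r, printed above each panel, and open points are unstressed WT libraries 1 and 2, which are not in it; Doc2g lies closest to a line (r = 0.98) and Omp scatters most (r = 0.61).

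Stress in KO mice was compared between 3 unstressed and 3 stressed libraries, in an edgeR quasi-likelihood fit of 14977 genes over the 10 libraries, which all 10 members passed. None of the 10 members passed an adjusted p of 0.05, against 0.02% of all genes tested, and none had an unadjusted p under 0.05, against 10.7%; DESeq2 called none either, with 3 members left without an adjusted p. The 5 mitral and tufted markers had negative log2 fold changes: -0.68 ± 0.68 (SE) for Cdhr1, -0.69 for Doc2g, -0.69 for Tbx21, -0.52 for Eomes and -1.88 ± 0.89 for Shisa3. Shisa3 was the one member whose groups did not overlap (8.27, 2.78 and 2.24 CPM without stress, 0.104, 2.02 and 1.79 CPM with it; edgeR adjusted p = 0.476), as were 17% of all genes. The median log2 fold change of the 10 was -0.48, beside 0 over all genes.

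The periglomerular markers were at 0.02 ± 0.53 for Th, -0.28 ± 0.26 for Sall3 and 0.47 ± 0.43 for Trh in the same comparison. Omp was at 2.02 ± 1.13 (95% interval -0.46 to 4.51), a value carried by stressed KO library 3: without it the estimate was -0.88, and that of Th was -0.68. Without unstressed KO library 1, the estimates for Cdhr1, Doc2g, Tbx21, Eomes, Sall3 and Ush1g turned positive, at 0.04 to 0.52. The intervals were wide, from -2.17 to 0.82 for Cdhr1, so these libraries are compatible with any difference within that span. Over all genes 3 passed, the clock output gene Dbp (0.99 ± 0.1), the integrin subunit Itgb8 (-0.78 ± 0.1) and Pakap (-1.34 ± 0.13; its counts are split by estimation in all 12 libraries and are uncertain), and none of them is a bulb marker of the lists used here.

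Genotype under stress compared 3 stressed KO with 3 stressed WT libraries. By edgeR none of the 10 members passed an adjusted p of 0.05, against 0.568% of all genes, and DESeq2 called none, with 1 left without an adjusted p. Trh had the only unadjusted p under 0.05 (0.98 ± 0.44, edgeR adjusted p = 0.325), beside 15% of all genes. No member had groups that did not overlap, beside 22.2% of all genes. Its levels were 5.05, 3.86 and 9.16 CPM in KO and 4.5, 2.57 and 1.98 CPM in WT. Tbx21 was at -1.62 ± 0.89 and Shisa3 at -1.26 ± 0.91, while Cdhr1, Doc2g, Eomes, Sall3 and Ush1g lay between -0.49 and 0.08. Without stressed WT library 1, Cdhr1 was at 0.77, Doc2g at 0.6, Eomes at 1.04 and Sall3 at 0.16, and Tbx21, Shisa3 and Th were at -0.15, -0.03 and -0.06.

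Omp was at 2.45 ± 1.16 in this comparison (95% interval -0.1 to 5) and at -0.45 without stressed KO library 3. Th was at -0.61 ± 0.51. The median of the 10 members was -0.3, beside 0 over all genes and 0.4 over 21 meningeal genes. Stressed KO library 1, with its high striatal genes, was lowest for Cdhr1, Doc2g, Eomes, Tbx21, Shisa3 and Th of the 3 stressed KO libraries. Without it, Cdhr1 was at 0.11 and Eomes at 0.32; the part of the striatal genes in these values was not tested.

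**Figure D3:**
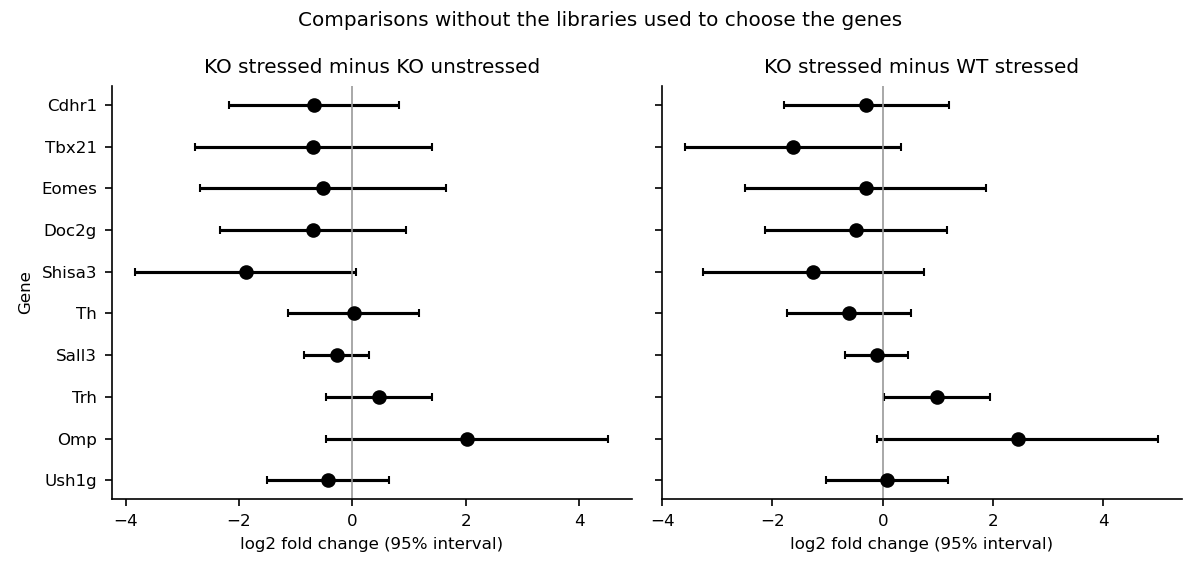
Log2 fold change (horizontal) of each of the 10 markers (vertical) with its 95% interval from the edgeR fit over 10 libraries, for stress in KO on the left and for KO against WT under stress on the right. Points are estimates; 9 of the 10 intervals on the right and all 10 on the left cross 0, the exception being Trh, whose unadjusted interval starts at 0.02.

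The comparisons that involve unstressed WT rest on library 3 alone once the choosing libraries are set aside, which is assumed to vary like the other groups. For stress in WT, edgeR called none of the 10 members and 0% of all genes (1906 genes with an unadjusted p under 0.05, and 88 called by DESeq2). DESeq2 gave no adjusted p for 8 of the 10 members here. All 10 members had negative estimates, with a median of -1.01 beside 0.01 over all genes. Omp was at -3.45 ± 1.33 (edgeR adjusted p = 0.348) and Sall3 at -0.75 ± 0.34 (edgeR adjusted p = 0.391), the 2 members with an unadjusted p under 0.05, beside 12.7% of all genes. Meningeal fibroblast genes had a median of -0.9 in the same comparison, negative in 20 of 21, and granule genes of -0.26, while oligodendrocyte genes had a median of 0.9, positive in 12 of 12; their part in the members' values was not tested.

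For genotype without stress, against that single WT library, edgeR called none of the members and 0.12% of all genes. The 10 estimates were again negative, with a median of -0.67 beside 0; Omp was at -3.02 ± 1.31 (edgeR adjusted p = 0.306) and Th at -1.39 ± 0.65 (edgeR adjusted p = 0.335). Of the members only Omp had an unadjusted p under 0.05, beside 15.2% of all genes. Meningeal genes had a median of -0.58 there. DESeq2 gave no adjusted p for 8 of the 10 members in this comparison, and for 9 of them in the interaction. Both comparisons share this library, so their common sign is no independent support. In the interaction, edgeR called no member and 0% of genes (1951 with an unadjusted p under 0.05, 67 called by DESeq2), and Omp was at 5.47 ± 1.75 (edgeR adjusted p = 0.3), the only member with an unadjusted p under 0.05, beside 13% of all genes. Without stressed KO library 3 that estimate was 2.57, no longer with an unadjusted p under 0.05.

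With all 3 unstressed WT libraries kept, which include those that chose the genes, the log2 fold changes describe how far the choice reaches into the study's contrasts. For stress in WT they ran from -6.13 for Omp through -3.95 for Shisa3, -3.55 for Cdhr1 and -3.13 for Th to -2.01 for Sall3, with a median of -3.5. For genotype without stress they ran from -5.68 for Omp through -4.23 for Tbx21, -3.75 for Th and -3.17 for Cdhr1 to -1.84 for Sall3, with a median of -3.28. No test is given for these values. Both contrasts share the same WT libraries.

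Levels relative to Cdhr1 within a library show which markers kept the proportions of the choosing libraries. Doc2g kept them best, with 33.1 to 52.4 counts per 100 Cdhr1 counts over the 12 libraries, a 1.58-fold range while Cdhr1 itself ranged from 7.61 to 427 CPM. The SD of the log2 ratio was 0.23 for Doc2g, 0.54 for Th, 0.55 for Ush1g, 0.7 for Tbx21, 0.78 for Trh, 0.83 for Eomes, 0.98 for Shisa3, 0.99 for Sall3 and 1.62 for Omp. Sall3 stood at 9.16 and 9.83 per 100 Cdhr1 counts in the choosing libraries and at 20 to 91 in the other 10, and Trh at 8.78 and 11.6 against 8.59 to 59.2. Omp ranged 39.9-fold, from 0.621 in unstressed KO library 3, where it had 2 counts, to 24.8 in stressed KO library 3.

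Th and Cdhr1, which mark different cell classes, had WT ratios of 22.3, 24.2 and 27.9 per 100 without stress and 25.1, 39.9 and 56.1 after it. The KO ratios were 13.4, 17.4 and 20.5 without stress and 29, 20.6 and 27.9 after it. The lowest Cdhr1 level, in stressed WT library 3, went with the highest Th ratio. As Cdhr1 is the denominator, this is partly built into the measure. Sall3 (91 per 100) and Ush1g (10.3) also had their highest ratios in that library. Without the choosing libraries, the log2 difference of the ratio (KO minus WT) was -0.77, and the genotypes overlapped.

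The ratio of Tbx21 to Cdhr1 separated the genotypes, a comparison chosen after the values had been seen. Tbx21 stood at 6.95, 5.79 and 4.67 counts per 100 Cdhr1 counts in WT libraries without stress, where stressed ones had 8.28, 6.06 and 4.93. KO libraries without stress had 2.95, 2.48 and 3.42, where stressed ones had 1.22, 3.87 and 3.26; the value of 1.22 rests on 3 counts of Tbx21. The 6 KO values, up to 3.87, all lay below the 6 WT values, from 4.67 up. The log2 difference (KO minus WT) was -1.1, and -1.07 without the choosing libraries. Because the comparison was picked for this separation, it is described with no test.

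Within the unstressed libraries alone the Tbx21 difference was -0.93, and within the stressed libraries alone -1.27. The unstressed separation was not particular to Tbx21. Per 100 Cdhr1 counts, Eomes stood there at 8.7 to 17.7 in KO and 21.5 to 22.8 in WT. Th stood at 13.4 to 20.5 in KO and 22.3 to 27.9 in WT, and Omp at 0.621 to 2.82 and 4.4 to 21. These WT values include the choosing libraries. At similar Cdhr1 levels of 48.9 to 59.5 CPM, the Tbx21 ratio was 2.95 in unstressed KO library 1, 4.67 in unstressed WT library 3 and 8.28 in stressed WT library 1. Set against other mitral and tufted markers the genotypes overlapped: Tbx21 stood at 3.7 to 10.2 per 100 Doc2g counts in KO and 9.64 to 16.3 in WT, and at 13.1 to 42.9 per 100 Eomes counts in KO and 20.9 to 42.4 in WT. Tbx21 lies 2.62 Mb from Cacna1g on chromosome 11, and genotype and colony cannot be told apart. The ratios of the other 8 markers to Cdhr1 overlapped between genotypes in the 10 libraries that did not choose them, with log2 differences of -0.77 to 0.49.

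**Figure D4:**
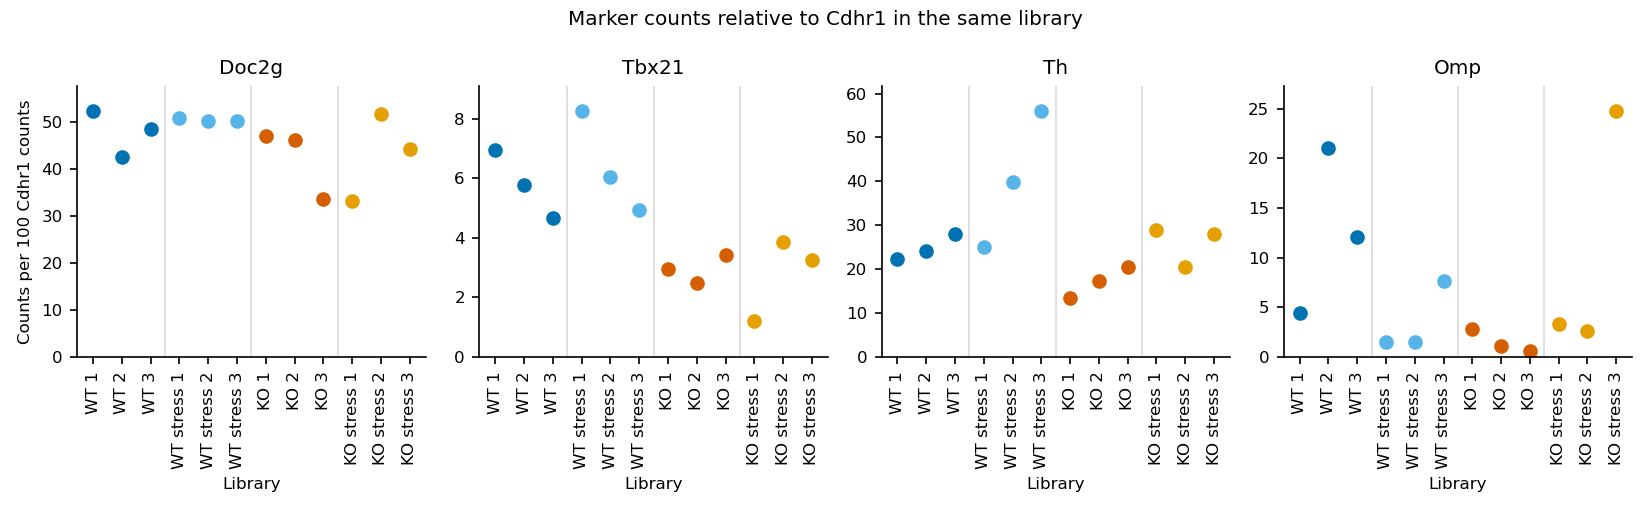
Counts of Doc2g, Tbx21, Th and Omp per 100 Cdhr1 counts (vertical) in each of the 12 libraries (horizontal), 1 point per library, coloured by group. Doc2g stays between 33.1 and 52.4, the 6 KO values of Tbx21 lie below the 6 WT values, and Omp reaches 21 and 24.8 in single libraries.

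Other genes of sensory neurons were read beside Omp. S100a5, a calcium-binding protein of these neurons, was at 17.6, 49.7 and 3.18 CPM in unstressed WT and 5.06 CPM in stressed KO library 3, and at most 0.839 CPM in the other 8 libraries. Stoml3, a stomatin of their cilia, was at 2.55, 10.5 and 0.662 CPM in unstressed WT and at most 0.32 CPM elsewhere. S100a5 and Stoml3 were picked after their values had been seen. Both were higher in the second unstressed WT library than in the first, the order of Omp.

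Odorant receptor genes gave few counts. Of 1125 odorant receptor rows, 66, 176 and 41 had any count in the unstressed WT libraries and 18 to 33 in the other 9, with summed levels of 14.8, 21.3 and 10.1 CPM against 5.92 to 11 CPM. Of 11 genes listed for other cells of the nasal epithelium, Cyp2g1, Ugt2a1, Obp1a and Obp2a had no count in any library, and Krt5 was near 0. Others of that list were detected at low levels. Trp63, a basal cell factor, was at 1.34 and 1.56 CPM in the choosing libraries against 0.241 to 0.776 CPM. Cyp2f2 was at 0.275 and 0.307 CPM against at most 0.132 CPM. Trpc2 did not separate the choosing libraries, with 0.378 and 2.73 CPM there against 0 to 2.1 CPM. Of the 18 sensory neuron genes listed, 14 could be compared over 12 libraries and 3 (S100a5, Stoml3 and Rtp1) were higher in both choosing libraries than in all others, a share near the 18.6% of all genes. The most abundant of that list were not: Gnal, the olfactory G protein subunit that striatal neurons also make, was at 147 and 176 CPM against 209 to 345 CPM, and Ncam2 (66.7 and 86.9 CPM) and Adcy3 (49.1 and 60.6 CPM) were likewise not high.

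**Figure D5:**
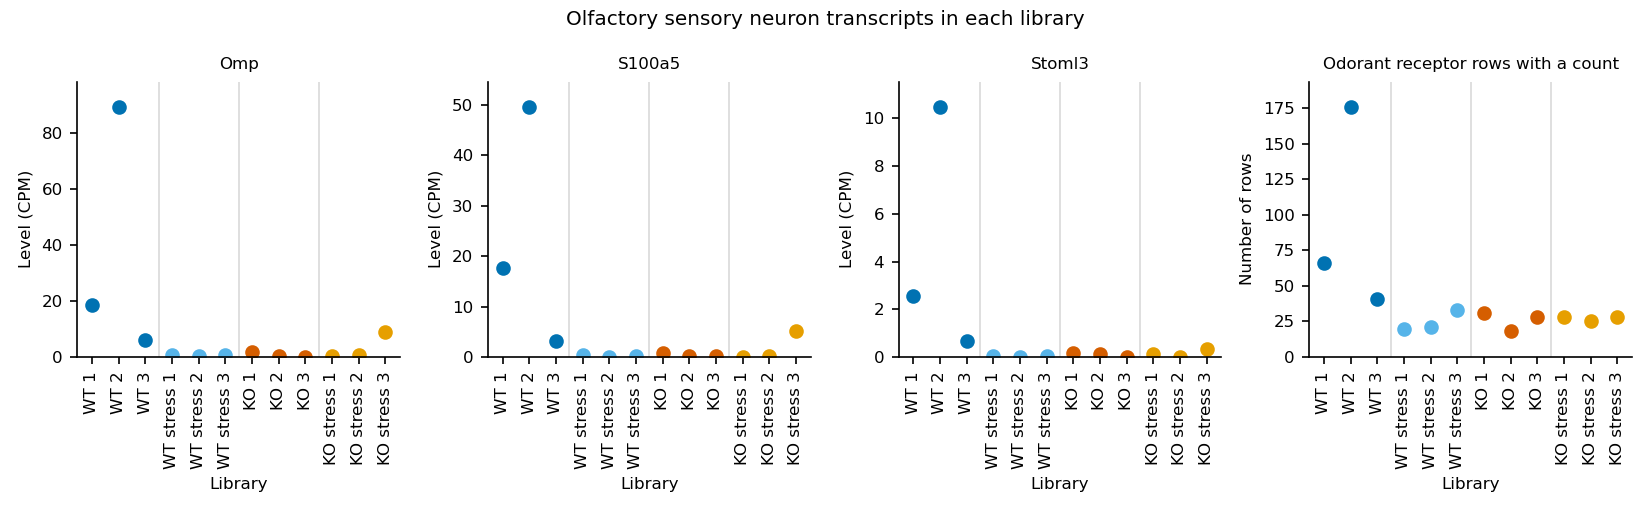
Levels in CPM of Omp, S100a5 and Stoml3, and the number of odorant receptor rows with any count (vertical), in each of the 12 libraries (horizontal), 1 point per library, coloured by group. Unstressed WT library 2 is highest in all 4 panels, at 89.6, 49.7 and 10.5 CPM and 176 rows, and stressed KO library 3 is raised for Omp and S100a5.

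Lists of other cell types of the region were read in the 2 libraries that chose the markers, as a description, beside the 18.6% of all genes that were above all others in both. Of other mitral and tufted genes, 6 of 10 were above, among them Reln, the extracellular protein reelin, at 230 and 288 CPM against 60.2 to 115 CPM. The glycoprotein gene Olfm1 (770 and 843 CPM against 966 to 1260) and the neuropeptide gene Cck (254 and 268 CPM against 272 to 442), which cortex also makes, were below. Of other periglomerular genes, 8 of 11 were above, with the GABA-synthesising enzymes Gad1 at 1360 and 1040 CPM against 315 to 537 CPM and Gad2 at 380 and 352 CPM against 163 to 310 CPM, and with the homeodomain factor Meis2 at 581 and 412 CPM against 161 to 262 CPM. Calb1, the calcium-binding protein calbindin, was below all others in both, at 118 and 116 CPM against 129 to 215 CPM.

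Granule cell and neuroblast genes were above in 11 of 15, with a median log2 difference of 1.9 beside -0.01 over all genes. Synpr, a synaptic vesicle protein, was at 518 and 371 CPM against 102 to 232 CPM, and Dcx, the microtubule protein of migrating neuroblasts, at 169 and 130 CPM against 28.9 to 62.7 CPM. Penk, which encodes enkephalin, did not separate: it was at 145 and 87.7 CPM, and at 153 CPM in stressed KO library 1. The granule list was higher in the first choosing library than in the second (summed 1690 and 1240 CPM), the opposite of Omp.

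Olfactory ensheathing glia genes, of the cells that wrap sensory axons, were above in 7 of 10, with summed levels of 591 and 776 CPM against 204 to 305 CPM. Apod, a lipocalin, was at 256 and 347 CPM against 44.8 to 97.3 CPM and Fabp7, a fatty acid binding protein, at 152 and 192 CPM against 33.6 to 103 CPM, whereas Npy was at 43.9 and 53.6 CPM, within the range of the others. Meningeal fibroblast genes, of the membranes over cortex and bulb alike, were above in 21 of 21 (Igf2 at 107 and 123 CPM against 16.3 to 58.1, Igfbp2 at 74.9 and 74.4 CPM against 12.1 to 36.3, and Islr at 54.3 and 66.2 CPM against 9.4 to 20.7). Their summed level was 523 and 625 CPM, then 229 CPM in unstressed WT library 3 and 86.1 to 205 CPM in the other 9. Their part in the members' levels was not tested.

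Cortical excitatory genes were below all other libraries in 8 of 14 and above in 1 (Etv1, also on the periglomerular list). Slc17a7 was at 1210 and 1380 CPM against 1740 to 2070 CPM, and Lmo4 at 200 and 233 CPM against 320 to 439 CPM, while Camk2a overlapped. None of 12 oligodendrocyte genes was above and 1 was below, and none of 13 striatal genes was above and 3 were below. Hippocampal progenitor genes, which share Eomes with the bulb, were above in 3 of 8, among them Calb2, also on the periglomerular list. Choroid plexus genes were above in 2 of 6, among them Aqp1, and neither of the 2 measurable T cell genes was above. In the edgeR fit over the 10 other libraries, no gene of these lists was called for stress in KO or for genotype under stress.

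The genes most like each of 3 members over the 12 libraries were found by the root mean square difference of centred log2 CPM, among 13810 genes whose log2 CPM averaged 0 or more, a minimum that left out S100a5. For Cdhr1 they were Shisa8 (0.37), Klhl30 (0.39), Vipr2 (0.39), Ppm1j (0.4) and Calb2 (0.41), while the member Doc2g was closer at 0.21. For Th they were Calb2 (0.44), Nmb (0.5), Rab37 (0.5), Lgr5 (0.51) and Shisa8 (0.51). Calb2, the calcium-binding protein calretinin of periglomerular and granule cells, stood at 307 and 317 CPM in the choosing libraries and at 12.4 to 60.6 CPM in the others. For Omp the nearest outside the members were Aqp1 (1.2), Alx4 (1.43), Nmb (1.46), Calb2 (1.55) and Rab37 (1.56), and the members Eomes (1.33), Th (1.37) and Ush1g (1.41) were closer than Alx4. The height of the choosing libraries dominates these distances.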

How the data were processed

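RNA was extracted with an RNeasy kit and libraries were made with the NEBNext Ultra II Directional kit, per the labels' protocols. The deposited table holds estimated counts per gene symbol for 12 libraries, which the authors made with tools that the submitters' processing notes list as RSEM 1.3.1, STAR 2.7.9a, DESeq2 1.36.0 and Trim Galore 0.6.6, with mm10. The role of each tool, the gene annotation, any filter and the handling of strand were not given in the sources used here. Counts were rounded and tested with edgeR 4.0.16 in R 4.3.3: TMM scaling, a filter on low counts (minimum 10, minimum total 15, smallest group 3), a quasi-likelihood fit with 1 mean per group and 6 residual degrees of freedom, and Benjamini-Hochberg adjustment over all 14977 genes tested, with a threshold of 0.05. Fits left out unstressed WT replicates 1 and 2, whose values chose the genes; a fit on all 12 libraries (15199 genes) gives descriptive fold changes. On simulated data the fit recovered 52.2% of 1.5-fold changes for stress in KO and 55.2% for genotype under stress. For 3-fold changes it recovered 93.9% and 98.5%, with 8 and 11 false calls in all. The simulated libraries shared the same expected levels apart from the added changes, so none stood apart as some libraries do here.

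Relations on the log2 CPM scale (prior count 2) used permutation tests with 100000 resamples (shuffles in numpy 2.4.6), 2-sided. Ratios were described without a test. Positions come from GENCODE vM21 (GRCm38) and upstream sequences from RefSeq, in which 7 of 10 members matched by symbol. Interval levels are 95%, and CPM floors cover counting error only. All 10 members are named; for other lists the 3 genes with the highest median CPM, those that passed a test and defining markers near 0 are named; likeness names the 5 nearest genes; where a comparison called up to 5 genes, these are named. The members and lists were chosen with earlier results of these data known, and the motifs and the ratio comparison between genotypes after values or sequences had been seen. Alternatives were another tool, no low-count filter, other sample sets, a replicate block and leaving out each replicate.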

Additional observations from a re-analysis of the deposited data

How the results depend on the processing

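Genes called for stress in KO numbered 3, but 59 with DESeq2 (1.42.0) and 0 (without stressed KO replicate 2) to 9 (without stressed KO replicate 1) when each replicate was left out. For genotype under stress the 85 became 132 without the filter, 359 with DESeq2, 38 with all 12 libraries, 41 with the compared groups only and 18 to 53 with a replicate left out. With 1 unstressed WT library, stress in WT gave 1 gene without the filter, 88 with DESeq2 and 3322 with all 12 libraries; genotype without stress gave 236 with DESeq2, 3529 with all 12 libraries and 9 to 13 with a replicate left out; the interaction gave 67 with DESeq2. Leaving out unstressed WT replicate 3 gives no value for the comparisons that rest on it alone. The cause of these shifts was not tested.

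A fit with the replicate number as a block gave 22 genes for genotype under stress, with Cdhr1 at 0.16 and Eomes at 0.21, and 10 genes for genotype without stress; Omp in the interaction was at 4.09, its unadjusted p no longer under 0.05. The numbers share only a label: 4 of 18 same-number pairs correlated above 0.1 (range -0.25 to 0.36), and 5 of 12 libraries matched best with their own number.

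No member was called for stress in KO or for genotype under stress in any of these alternatives. For stress in KO, Th was at -0.01 with all 12 libraries. Leaving out each replicate gave -1.25 to 0.06 for Cdhr1, -1.23 to 0.18 for Doc2g, -1.84 to 0.52 for Eomes, -0.88 to 3.94 for Omp, -0.5 to 0.04 for Sall3, -1.29 to 0.11 for Tbx21, -0.68 to 0.5 for Th and -0.83 to 0.45 for Ush1g. For genotype under stress it gave -0.86 to 0.77 for Cdhr1, -1.02 to 0.6 for Doc2g, -1.63 to 1.04 for Eomes, -0.45 to 3.05 for Omp, -0.28 to 0.16 for Sall3, -0.31 to 0.34 for Ush1g, -2.22 to -0.15 for Tbx21, -1.88 to -0.03 for Shisa3 and -1.3 to -0.06 for Th. The relation of Trh to Cdhr1 lost its call in 8 of 10 leave-outs, with r from 0.54 to 0.85. The Tbx21 ratio difference ran from -1.2 to -0.9 over leave-outs, and was -0.93 in unstressed and -1.27 in stressed libraries.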
